A study of Mus musculus with 5 samples.

Results

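The 10 genes described here encode serine-arginine (SR) splicing factors, namely Srsf1, Srsf2, Srsf3, Srsf4, Srsf5, Srsf6, Srsf7, Srsf9, Srsf10 and Srsf11. They were chosen by symbol, and Srsf12 was placed in a further list instead. Every H2A.Z or ANP32E region in whose list of nearby genes a member appears was taken. This gave 21 of 31098 H2A.Z regions, which together list all 10 genes, and 13 of 8444 ANP32E regions, which list 9 of them. In all, 17548 gene symbols were listed in the tables. A promoter region of a gene was the region nearest to its start, within 1000 bp or inside the region.

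The samples were whole hearts of male C57BL/6 mice. TAC hearts were taken 4 days after transaortic coarctation, a surgical narrowing of the aorta that puts a pressure load on the left ventricle, and were labelled as hypertrophied. Sham hearts came from sham-operated animals and were labelled as normal, and the labels give an age of 12 weeks for both. Chromatin was precipitated with an antibody against the histone variant H2A.Z or against ANP32E, a protein that takes H2A.Z off nucleosomes and also inhibits protein phosphatase 2A. Each antibody had 1 TAC and 1 sham library, and an input library of pooled heart was also made. How many hearts entered a library is not stated. A difference between TAC and sham therefore describes these libraries, no p-value can be given, and a whole heart mixes cardiomyocytes with other cells, so that a difference in a few cells and a smaller one in many cannot be told apart.

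SR proteins bind exons of the primary transcript through RNA recognition motifs and recruit the splicing machinery through a tail rich in arginine and serine. SRPK kinases in the cytoplasm and CLK kinases in the nucleus phosphorylate that tail, and phosphatases of the PP1 and PP2A classes remove the phosphates. In the mouse heart, SRSF1 is known to control splicing of Camk2d, and loss of SRSF2 from cardiomyocytes leads to dilated cardiomyopathy. Promoters of SR genes are rich in CpG, the kind of promoter at which nucleosomes beside the start site commonly carry H2A.Z.

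The RefSeq promoter windows of the genes, 250 bases before to 50 bases after an annotated start, numbered 13 and matched all 10 symbols (build GRCm38.p6, the assembly that mm10 names). All 13 windows lay within an H2A.Z region of their gene, and 9 lay wholly within an ANP32E region. The bases before the start are printed for 5 members: Srsf3 and Srsf6, where an ANP32E interval was called only in TAC, Srsf10, where it was called only in sham, Srsf4, the other member with a low ANP32E ratio, and Srsf11, which had no ANP32E region and the highest H2A.Z ratio. Capitals mark exact matches, on either strand, to GGGCGG (the GC box bound by Sp1), to CCAAT (bound by NF-Y), to TATAAA (the core of the TATA box), to CACGTG (an E-box), to CCGGAAG (an ETS-type motif), to TGACGTCA (the cyclic AMP response element) or to the NRF1 motif.
Srsf3, chr17:29032410-29032659, plus strand: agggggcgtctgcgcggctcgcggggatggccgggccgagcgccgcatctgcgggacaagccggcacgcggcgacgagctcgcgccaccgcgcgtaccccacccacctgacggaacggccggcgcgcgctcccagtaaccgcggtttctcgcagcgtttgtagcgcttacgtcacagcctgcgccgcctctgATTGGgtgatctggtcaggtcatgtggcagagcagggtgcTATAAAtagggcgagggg
Srsf6, chr2:162931258-162931507, plus strand: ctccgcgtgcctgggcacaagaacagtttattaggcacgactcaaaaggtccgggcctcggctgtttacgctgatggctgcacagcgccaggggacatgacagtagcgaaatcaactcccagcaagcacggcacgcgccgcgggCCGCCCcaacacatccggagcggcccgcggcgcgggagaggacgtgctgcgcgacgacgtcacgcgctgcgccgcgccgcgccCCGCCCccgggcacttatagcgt
Srsf10, chr4:135855821-135856070, plus strand: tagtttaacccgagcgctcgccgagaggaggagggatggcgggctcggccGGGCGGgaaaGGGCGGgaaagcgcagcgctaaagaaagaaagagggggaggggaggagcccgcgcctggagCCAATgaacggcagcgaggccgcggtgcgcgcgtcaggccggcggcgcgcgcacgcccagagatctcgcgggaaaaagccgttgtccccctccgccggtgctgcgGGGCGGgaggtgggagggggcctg
Srsf4, chr4:131873387-131873636, plus strand: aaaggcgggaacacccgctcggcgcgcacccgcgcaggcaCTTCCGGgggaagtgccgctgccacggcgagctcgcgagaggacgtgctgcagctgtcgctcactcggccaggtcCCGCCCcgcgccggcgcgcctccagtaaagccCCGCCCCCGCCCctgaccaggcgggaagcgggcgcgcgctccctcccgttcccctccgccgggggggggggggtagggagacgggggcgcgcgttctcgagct
Srsf11, chr3:158036607-158036856, minus strand: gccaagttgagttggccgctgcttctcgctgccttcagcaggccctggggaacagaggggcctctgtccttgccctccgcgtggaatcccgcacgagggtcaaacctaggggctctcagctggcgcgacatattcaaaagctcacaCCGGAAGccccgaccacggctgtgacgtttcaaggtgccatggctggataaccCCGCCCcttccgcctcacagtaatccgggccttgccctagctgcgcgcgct

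The windows were GC-rich, with a median G+C content of 69.0% and a median of 38 CpG dinucleotides, against 52.7% and 7 over all 32851 RefSeq windows. GGGCGG was found in 12 of the 13 windows and in 9 of the 10 genes, compared with 35.7% of all windows. The only SR gene without it was Srsf3, whose window held instead TATAAA from 18 bases before the start, and CCAAT, read on the opposite strand, from 58 bases before it. TATAAA was also found at Srsf2, giving 2 of the 13 windows, and stood in 13.6% of all windows. CCAAT was found in 4 of the 13 windows, close to its share of all windows (37.4%). CCGGAAG was found in 6 windows, but in only 4 of the 10 genes (8.86% of all windows). The NRF1 motif was found in 4 windows and 4 genes (4.60% of all windows). Windows of the same gene can overlap. CACGTG and TGACGTCA were found in none of the 13 windows, and stood in 7.15% and 1.79% of all windows. No motif searched lies within another, but matches can share bases, as neighbouring GC boxes do at Srsf2. The shares over all windows were not matched for G+C content or CpG, in which the SR windows differ. A match describes letters in the window only.

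H2A.Z covered the promoter of each of the 10 SR genes in both conditions and differed little between TAC and sham. Its mean over the libraries was in the stronger 50% of all promoters at each of them. All 10 promoter regions were called in both libraries and lay over a CpG island, as did 96.2% and 84.2% of all H2A.Z promoters. Average signal, in the authors' units, ran from 28.0 at Srsf6 to 49.7 at Srsf2 in TAC, and from 30.1 to 52.8 at these genes in sham. The medians over the 10, taken within each library, were 36.3 in TAC and 34.8 in sham, compared with 28.3 and 27.6 over all 13763 H2A.Z promoters. Ratios are given as log2((TAC + 1)/(sham + 1)) of the average signal, where a value above 0 means more signal in TAC. No SR promoter differed by 1.5-fold or more, which 0.581% of all promoters did. The ratio was below 0 at 7 SR genes and above 0 at 3, with a median of -0.07 (range -0.28 to 0.16), while over all promoters the median was 0.04 (SD 0.16) and 60.1% were above 0.

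**Figure D1:**
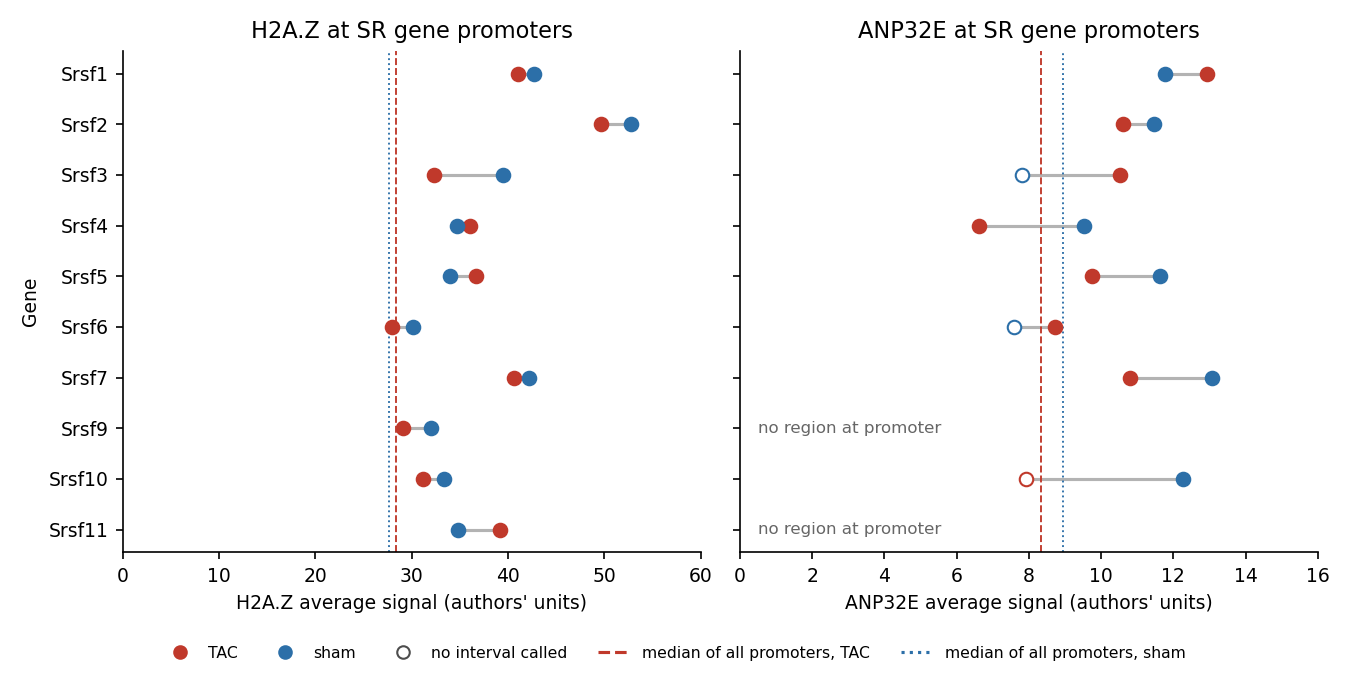
Average signal of H2A.Z (left) and ANP32E (right) at the promoter region of each SR gene, in the authors' units, with 1 point per library. Red points are TAC, blue points sham, open points libraries in which no interval was called, and vertical lines the medians of all promoters; TAC lies right of sham for ANP32E at Srsf1, Srsf3 and Srsf6 and left of it at the other 5 genes with a region.

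Srsf3 had the lowest H2A.Z ratio of the family by average signal. SRSF3, a small SR protein, takes part in splicing, polyadenylation and export of mRNA. Its promoter region (chr17:29029901-29033974) had an average H2A.Z signal of 32.3 in TAC and 39.4 in sham, a log2 ratio of -0.28. Only 216 of the 13763 promoters (1.57%) had a lower ratio, although the difference is 1.21-fold, below the 1.5-fold threshold. The peak value, the height of the signal at its highest point in the region, was 129 in TAC and 138 in sham, a smaller ratio of -0.10.

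SRSF1 and SRSF7 are, like SRSF3, shuttling proteins that help to hand mRNA to the export receptor NXF1. H2A.Z at Srsf1 (chr11:88045957-88049668) was 41.0 in TAC and 42.7 in sham (-0.06), with peak values of 110 and 136 (-0.30). At Srsf7 (chr17:80205515-80208734) it was 40.6 in TAC and 42.2 in sham (-0.05), with peak values of 143 and 142 (0.01). Both promoters were thus nearly level by average signal, and TAC was the lower library by peak height at Srsf1. The Srsf1 region also serves 2010015M23Rik, whose start is close by, so the signal belongs to both genes.

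Srsf2, encoding SC35, had the strongest H2A.Z promoter of the family. Its region (chr11:116851166-116855462), which is also the promoter of Mfsd11, had 49.7 in TAC and 52.8 in sham (-0.08), and its mean signal exceeded that of 98.6% of all promoters. At Srsf9, encoding SRp30c, H2A.Z was 29.0 in TAC and 32.0 in sham (-0.14; chr5:115325450-115329348). At Srsf10, encoding a factor that represses splicing once it is dephosphorylated, it was 31.2 in TAC and 33.3 in sham (-0.09; chr4:135853463-135857627). Srsf6, encoding SRp55, had 28.0 in TAC and 30.1 in sham (-0.10; chr2:162928699-162933443). All of these promoters were slightly lower in TAC, also by peak values, whose ratios lay between -0.25 at Srsf6 and -0.03 at Srsf2.

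Srsf4, Srsf5 and Srsf11 were the members with more H2A.Z in TAC. Srsf4, encoding SRp75, had 36.1 in TAC and 34.7 in sham (0.05; chr4:131872241-131875437). Srsf5, encoding SRp40, had 36.6 in TAC and 34.0 in sham (0.10; chr12:80944344-80946862), with peak values of 98 and 74 (0.40), the highest peak ratio of the family; the region is shared with Gm20337. Srsf11, encoding p54, a protein of nuclear speckles, had 39.1 in TAC and 34.8 in sham (0.16; chr3:158035369-158038225), in a region shared with Lrrc40. Peak values put these 3 genes on the same side. Over the family, peak ratios had a median of -0.06, with 4 above 0, against 0.14 and 74.8% over all promoters.

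ANP32E was present at the promoters of 8 of the 10 SR genes. Its ratios spread more widely than those of H2A.Z (SD 0.33 against 0.13), as they did over all promoters (SD 0.39 against 0.16). For both proteins they lay on either side of 0. Srsf9 and Srsf11 had no ANP32E region at the promoter, although their H2A.Z signal was within the range of the other members. By comparison, 39.6% of all H2A.Z promoters, and 55.7% of the stronger 50% of them, to which all 10 SR promoters belong, had an ANP32E region. An interval was called in both libraries at 5 SR promoters, in TAC only at Srsf3 and Srsf6, and in sham only at Srsf10; over all 5496 ANP32E promoters these shares were 48.3%, 17.8% and 33.8%. No SR promoter was past 1.5-fold, where 13.6% of all promoters were, 4.31% higher and 9.24% lower. The median log2 ratio of the 8 was -0.17, with 3 above 0, against -0.14 and 36.2% over all promoters, so that the family as a whole stood near the background. The median of all ANP32E regions was -0.26, and relative to that shift 6 of the 8 members lay above 0, as did 64.2% of all promoters.

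**Figure D2:**
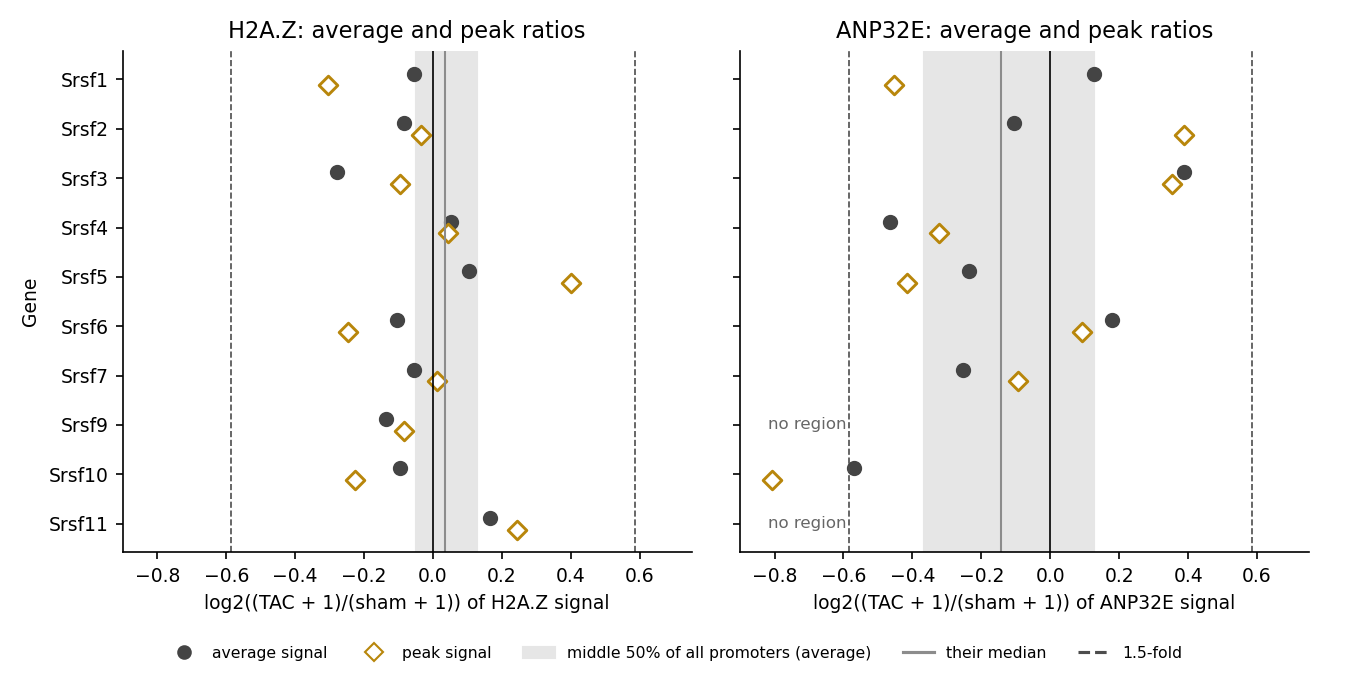
log2((TAC + 1)/(sham + 1)) of H2A.Z (left) and ANP32E (right) signal at SR promoters, from average signal (filled circles) and peak signal (open diamonds). Grey bands hold the middle 50% of all promoters by average signal and dashed lines mark 1.5-fold; for ANP32E the average and peak ratios lie on opposite sides of 0 at Srsf1 and Srsf2.

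The highest ANP32E ratio by average signal was at Srsf3. Its region (chr17:29031308-29033274), which covers the Srsf3 sequence printed above, had an average signal of 10.5 in TAC and 7.80 in sham, a log2 ratio of 0.39. Measured from the shift of all regions it stood at 0.65, past 1.5-fold, where 12.6% of all promoters were that high. The peak value was 22 in TAC and 17 in sham (0.35), and the ratio exceeded that of 90.7% of all promoters. By average signal Srsf3 was thus the member with the lowest H2A.Z ratio and the highest ANP32E ratio. By peak values the H2A.Z ratio was lower at Srsf1, Srsf6 and Srsf10 (-0.30, -0.25 and -0.23) than at Srsf3 (-0.10), and the ANP32E ratio was higher at Srsf2 (0.39).

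Srsf6 and Srsf1 also had ratios above 0. At Srsf6 (chr2:162930430-162931460) ANP32E was 8.72 in TAC and 7.58 in sham (0.18), with peak values of 15 and 14 (0.09). This was the shortest ANP32E region of the family, 1030 bp long, and it ended 48 bp before the annotated start. At Srsf1 (chr11:88046672-88048821) the average was 12.9 in TAC and 11.8 in sham (0.13), but the peak value was 26 in TAC and 36 in sham (-0.45), so the direction at Srsf1 depends on the measure.

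The lowest ANP32E ratios were at Srsf10 and Srsf4. At Srsf10 (chr4:135855053-135856453) the average was 7.93 in TAC and 12.3 in sham, a log2 ratio of -0.57, just inside the 1.5-fold threshold, and the peak value was 15 in TAC and 27 in sham (-0.81), past it; by peak values 17.2% of all promoters were lower at 1.5-fold. At Srsf4 (chr4:131872659-131874907) it was 6.62 in TAC and 9.52 in sham (-0.46), with peak values of 19 and 24 (-0.32). Both stayed below 0 relative to the shift, at -0.31 and -0.20. They were the only members to do so.

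At Srsf7 (chr17:80206245-80208252), the strongest ANP32E promoter of the family in sham, the average was 10.8 in TAC and 13.1 in sham (-0.25, or 0.01 relative to the shift). At Srsf5 (chr12:80944531-80946911) it was 9.74 in TAC and 11.6 in sham (-0.23, or 0.03). At Srsf2 (chr11:116851392-116854878) it was 10.6 in TAC and 11.5 in sham (-0.10, or 0.16). Srsf7 and Srsf5 were lower in TAC by about as much as the median of all ANP32E regions, and Srsf2 by less. Against the median of all ANP32E promoters (-0.14), Srsf7 and Srsf5 were lower and Srsf2 was slightly higher. At Srsf2 the peak value went the other way, with 33 in TAC and 25 in sham (0.39).

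The 2 proteins were compared at the 8 promoters with a region of each. H2A.Z was lower and ANP32E higher in TAC at Srsf1, Srsf3 and Srsf6, a combination found at 16.9% of the 5449 promoters with both. H2A.Z was higher and ANP32E lower at Srsf4 and Srsf5 (28.2% of all), both were lower at Srsf2, Srsf7 and Srsf10 (35.3%), and no SR promoter had both higher (19.4%). The directions were thus opposite at 5 of 8 SR promoters, and at 45.1% of all. With peak values they were opposite at 6 of 8, and at 49.6% of all, but in a partly different set, since Srsf1 left it and Srsf2 and Srsf7 joined. Relative to the shift, ANP32E stood above 0 at Srsf2, Srsf5 and Srsf7, which again gave 6 of 8, against 50.8% of all, now with Srsf2 and Srsf7 in and Srsf5, where both proteins then stood above 0, out. At Srsf3, Srsf4 and Srsf6 the directions were opposite in all 3 ways. Of these, Srsf4 and Srsf6 had weak ANP32E signal, with a mean above that of only 37.8% and 39.9% of all ANP32E promoters. These 3 ways use the same libraries, and the share of all promoters opposite in all 3 was not computed. Some signs rest on close peak values, such as ANP32E at Srsf6 (15 in TAC, 14 in sham) and H2A.Z at Srsf4 (98 and 95).

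**Figure D3:**
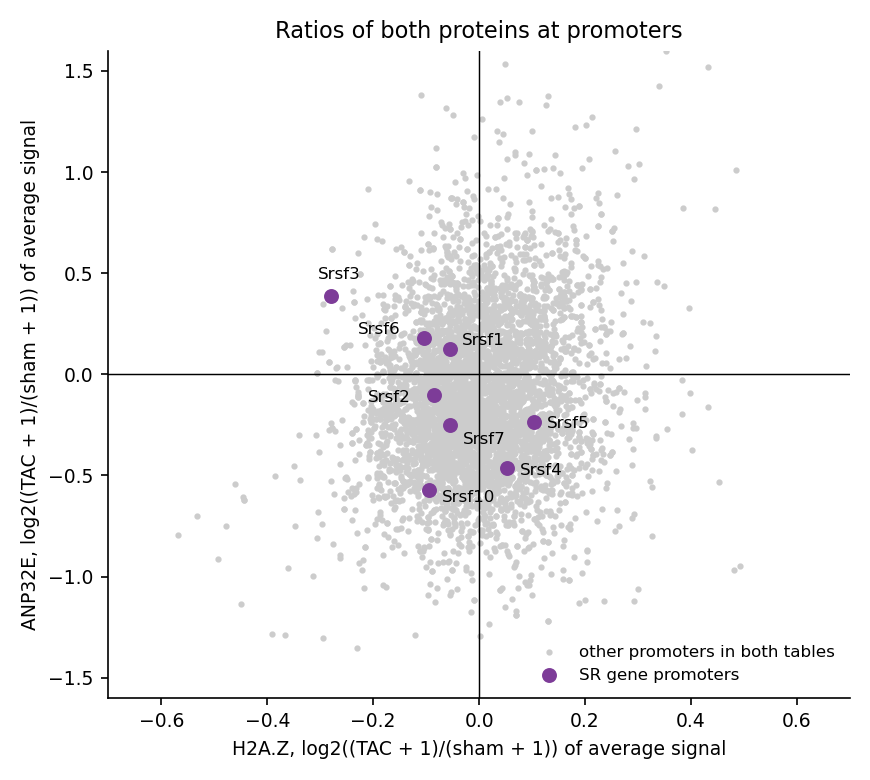
log2((TAC + 1)/(sham + 1)) of average ANP32E signal (vertical) against that of H2A.Z (horizontal) at the 5449 promoters with a region of each, SR genes in purple and the rest in grey; 4 grey points lie outside the axes. Srsf3 lies at the upper left, at -0.28 and 0.39, and no SR gene lies in the upper right.

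All 8 ANP32E promoter regions lay over the H2A.Z region of the same gene. Their share of its length ran from 21.7% at Srsf6 and 33.6% at Srsf10 to 92.6% at Srsf5. The ANP32E regions of Srsf6 and Srsf10 were short, at 1030 and 1400 bp, within H2A.Z regions of 4744 and 4164 bp. The median length over all H2A.Z promoters was 4293 bp. In Srsf3 ANP32E took 48.3% of the H2A.Z region, with its centre 353.5 bp to the downstream side. Over all regions listed for the family, 12 of 13 ANP32E regions overlapped H2A.Z and 11 lay wholly inside it, which is near the 92.8% and 87.9% of all ANP32E regions.

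Away from the members' own promoters there were 11 H2A.Z and 5 ANP32E regions, and several of these are promoters of neighbouring genes. None of the 11 H2A.Z regions was past 1.5-fold by average signal, compared with 5.65% of all H2A.Z regions in either direction. Of those at no promoter by the listed gene starts, 8.62% were, and 7 of the 11 belong there. These 7 include the region inside Srsf11 described below, which holds an annotated start other than the listed one. By peak values 2 reached 1.5-fold, both higher in TAC, downstream of Srsf6 (0.67) and of Srsf4 (0.58, at the threshold), where 5.81% of all H2A.Z regions were that high. The highest ratio was at a region downstream of Srsf4 (chr4:131909361-131911548), without a CpG island and also listed for Gm12992, with 15.6 in TAC and 10.4 in sham (0.54). Next was the region downstream of Srsf6 that is the promoter of L3mbtl1, a reader of methylated histones, with 16.4 in TAC and 11.4 in sham (0.49; chr2:162942389-162944338). The third lay inside Srsf11 (chr3:158030729-158032788) over a CpG island and contained the gene's other annotated RefSeq start, with 22.1 in TAC and 17.3 in sham (0.33; peak values 66 and 44). H2A.Z was thus higher in TAC over both annotated starts of Srsf11. The lowest was upstream of Srsf10 (chr4:135846441-135848525), with 9.97 in TAC and 12.5 in sham (-0.30). It was called in sham only, as were 18.7% of all H2A.Z regions at no promoter.

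All 5 ANP32E regions away from the members' promoters had ratios below 0, although 3 of them stood above 0 relative to the shift. Ratios below 0 were common in general, since only 29.2% of all ANP32E regions, and 20.3% of those at no promoter, were above 0. A region downstream of Srsf5 (chr12:80952124-80953312), without a CpG island, had 2.12 in TAC and 6.05 in sham, with peak values of 3 and 19. It was called in sham only, as were 68.6% of all ANP32E regions at no promoter. Its ratio of -1.18 was the only one past 1.5-fold by average signal among the regions of the family, and it was the only ANP32E region that overlapped no H2A.Z region; 23.9% of all ANP32E regions, and 41.3% of those at no promoter, were lower by that much. The region at the shared promoter of Jmjd6, a hydroxylase that acts on the splicing factor U2AF2, and Mettl23, near Srsf2, had 11.5 in TAC and 16.8 in sham (-0.51; chr11:116841819-116844545). H2A.Z there was 50.1 in TAC and 48.4 in sham (0.05). The other 3 lay downstream of Srsf9, at the shared promoter of Gatc and Triap1 (-0.17), and downstream of Srsf10, at and beside the start of Pnrc2 (-0.03 and -0.26).

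**Figure D4:**
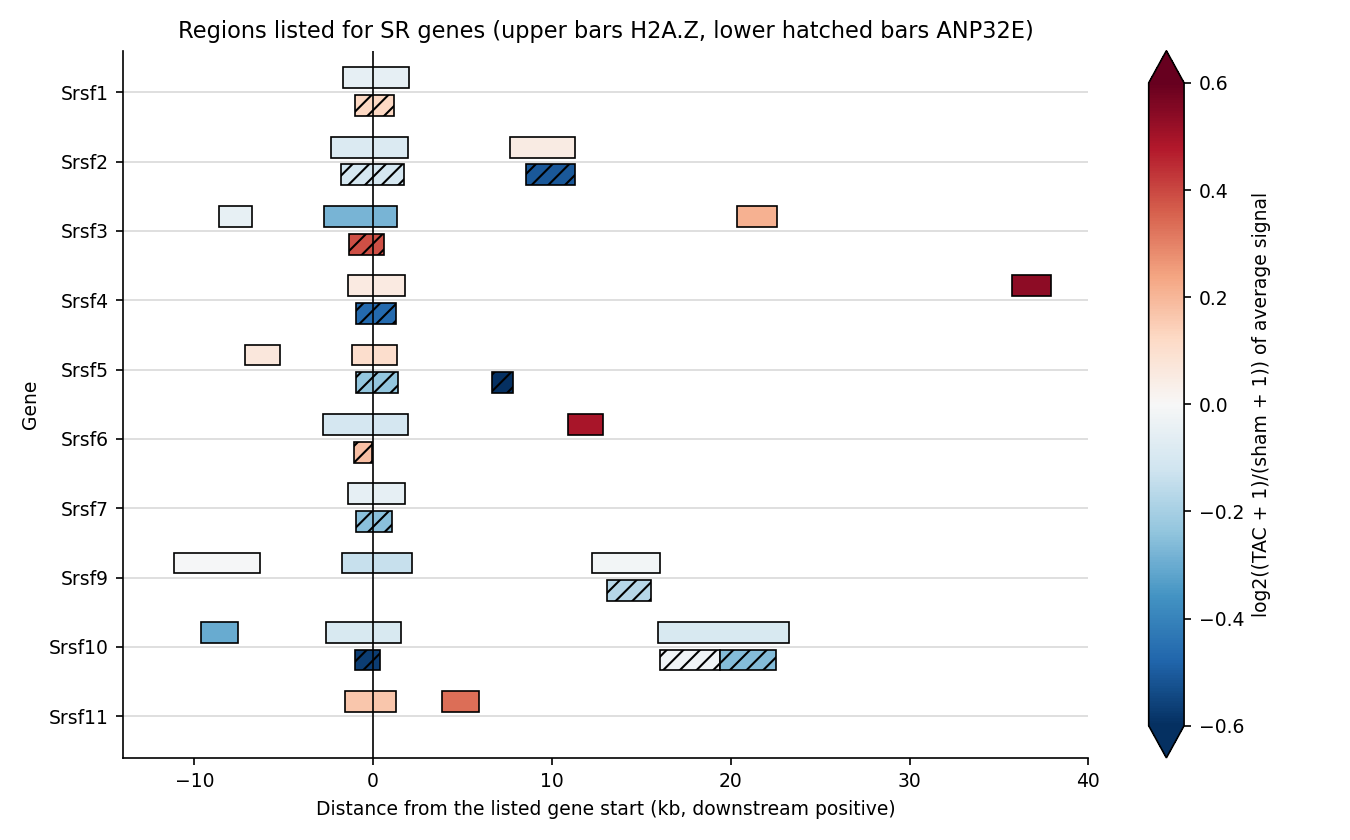
Regions listed for each SR gene by distance from its start (kb, downstream positive), with H2A.Z as plain upper bars and ANP32E as hatched lower bars, coloured by log2((TAC + 1)/(sham + 1)) of average signal; the colour scale ends at 0.6 in either direction. The promoter regions cluster at 0, and the strongest colours away from it are downstream of Srsf4 and Srsf6 (H2A.Z, higher in TAC) and of Srsf5 and Srsf2 (ANP32E, lower in TAC).

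The genes of the kinases, the importer and related proteins that act with SR proteins were taken as a list of 22. H2A.Z was found at 21 of their promoters, none past 1.5-fold (0.581% of all promoters were), with a median log2 ratio of -0.01 and 10 above 0 (0.04 and 60.1% over all promoters). The highest were Srsf12 (0.16) and Tra2a (0.15), an SR-like splicing activator, and the lowest were Srpk2 (-0.26, but 0.12 by peak values) and Srpk3 (-0.19). Srsf12, which was not one of the members above, had weak H2A.Z, with 13.5 in TAC and 11.9 in sham. The medians over all H2A.Z promoters were 28.3 and 27.6. Srsf12 had no ANP32E region at its promoter. ANP32E was found at 15 of these 21 promoters, where 39.6% of all H2A.Z promoters, and 55.7% of the stronger 50%, had it. Of the 15, 1 was lower and none higher past 1.5-fold, with a median of -0.17 (0.09 relative to the shift). This is near the 9.24% lower, 4.31% higher and median of -0.14 over all promoters. The lower one was Srpk2, a kinase of the SR tail, with 3.93 in TAC and 8.17 in sham (-0.89, or -0.63 relative to the shift, past 1.5-fold as 2.29% of all promoters were), called in sham only. Srpk1, its close relative, had the highest ratio, with 7.55 in TAC and 4.77 in sham (0.57), called in TAC only. It was just inside 1.5-fold by average signal, but past it relative to the shift (0.83) and by peak values, which were 17 in TAC and 8 in sham. Next to these were Tra2b (0.11) and Srrm2 (-0.39, or -0.12 relative to the shift), a scaffold of nuclear speckles. By peak values 1 promoter of the list was past 1.5-fold higher and 2 were lower, namely Srpk1, and Srpk2 and Srrm2 (-0.93 and -0.82), where 6.31% and 17.2% of all promoters were. The kinase genes Srpk1 and Srpk2 thus stood at opposite ends of the list for ANP32E.

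By Euclidean distance over log2(average signal + 1) in the 4 libraries, the non-member promoters nearest to the family's median were those of Catsper2 and Pdia3, which share a region (0.03), and of Tia1 (0.07), among 5449 promoters with both proteins. The members themselves lay 0.13 (Srsf5) to 0.75 (Srsf6) from it.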

How the data were processed

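The authors deposited, per antibody, a table of regions merged from the intervals called in the TAC and sham libraries. Per the file headers, each region has an average and a peak signal per library, used as deposited, a mark for a called interval, a count of CpG islands, and nearby genes with distances. BWA, SICER and mm10 are named per the submitters' processing notes; versions, depth scaling and the role of the input remain not given in the sources used here. Depth is therefore unknown, and values carry no counting interval. Coordinates are those of the tables. From these values log2((TAC + 1)/(sham + 1)) was computed with a pseudocount of 1, which understates differences of weak regions, and 1.5-fold was the threshold. With 1 library per group there is no replicate check. Members and lists were chosen with earlier results of these data known. The genes named are all members, the 2 highest and 2 lowest of each further list, and the 3 promoters most like the family. Of the genes that share the members' regions, mainly those with their own promoter there are named. Others, such as Mecr at Srsf4, Gm20267 at Srsf6 and Ttc39d at Srsf7, were left out above. Alternatives were pseudocounts of 0.1 and 5, peak signal, only the stronger 50% of promoters, centring on the median of all regions, a 2-fold threshold, promoters within 5000 bp, and overlap of 50% of a region. The ratio step was run on the sham values with differences planted by the same formula, and the promoter step was checked by a second computation on the deposited regions. Both check the code only. Python 3.11.15, numpy 2.4.6, pandas 2.3.3 and matplotlib 3.10.9 were used.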

Additional observations from a re-analysis of the deposited data

How the results depend on the processing

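No paired analysis was possible because each antibody had 1 library per condition, and no library could be left out. No SR promoter passed 1.5-fold for H2A.Z in any alternative, and its median log2 ratio stayed between -0.08 and -0.06. For ANP32E, no SR promoter was lower by 1.5-fold as reported, but 1 was, Srsf10, with peak signal and also with a pseudocount of 0.1, and 1 was higher, Srsf3, with ratios centred on the median of all regions. The ANP32E median stayed between -0.21 and -0.13, except with centring, which gave 0.09. Among the stronger 50% of promoters 6 ANP32E members remained, without Srsf4 and Srsf6, and 1 of the 6 was called in TAC only. A value was taken as moved where it differed by more than the SD of the ratio over all promoters. Of 54 member ratios recomputed with peak signal or another pseudocount 5 moved, all with peak signal: Srsf1, Srsf3 and Srsf5 for H2A.Z, and Srsf1 and Srsf2 for ANP32E. The stronger 50% and the 5000 bp limit leave each member ratio as it was, and centring moves all of a table by 1 constant, which turned the sign of ANP32E at Srsf2, Srsf5 and Srsf7. Requiring overlap of 50% of the ANP32E region left the count of overlapping regions at 12. The authors' scaling is unknown, and it limits every ratio given.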

Other observations

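RNA-binding proteins that set alternative splicing in heart muscle formed a further list of 14 genes. H2A.Z was found at 9 of their promoters, none past 1.5-fold (0.581% of all promoters were), with a median log2 ratio of 0.07 and 6 above 0, near the 60.1% over all promoters. The highest was Rbm20, which controls splicing of titin, with 21.0 in TAC and 15.2 in sham (0.44). Its interval was called in TAC only, as at 2.83% of all H2A.Z promoters. Celf1, a regulator of splicing in the developing heart, followed with 38.8 in TAC and 32.4 in sham (0.25). The lowest were Rbpms (-0.15) and Qk (-0.07). Peak values put all 9 above 0, also these 2, and 74.8% of all promoters.

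ANP32E was found at 5 of the 14 promoters, all of them among the 9 with H2A.Z. Over all H2A.Z promoters 39.6% had an ANP32E region, and 55.7% of the stronger 50% did. The median ratio of the 5 was -0.04 (0.22 when measured from the median of all regions), against -0.14 (0.12) over all ANP32E promoters. Qk, which encodes the splicing factor Quaking, had 7.34 in TAC and 12.9 in sham (-0.74), the only member past 1.5-fold, against 9.24% of all ANP32E promoters that were lower by that much. It was inside 1.5-fold when measured from the median of all regions (-0.47) and by peak values (-0.56). Rbfox2 followed at -0.06 (0.20 on that relative scale), and the highest were Rbpms (0.20) and Hnrnpu (0.02).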
